A study of Caenorhabditis elegans with 12 samples.

Results

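The samples compared were whole Caenorhabditis elegans daf-2 larvae harvested 60 h after egg laying and daf-2 larvae harvested 52 h after egg laying, an interval of 8 h on the way into dauer. The 3 libraries of each time were chosen by their labels, which gave 6 of the 12 libraries of the series. All larvae in these 6 libraries were of strain CB1370 and carried daf-2(e1370), so no group had a normal insulin receptor and no wild-type larvae entered the comparison. Eggs were laid for 2 h at 15 °C by 20 adults on each of 6 NGM plates with OP50 bacteria, and the brood was then raised at 25 °C, the temperature at which this allele drives larvae into dauer. The series' design text calls both times late L2d, the stage that leads to dauer, and no count of dauer larvae was given in the sources used here. The other 6 libraries, of strain LJ2703 with daf-2(e1370) and daf-42(ys54) at the same times, were used for 1 contrast at the end; their 60 h harvest held living and dead L2d larvae. RNA came from pooled whole larvae, polyadenylated RNA was sequenced, and the deposited values were estimated counts and TPM, a level scaled for depth and transcript length, for each transcript.

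Dauer is an alternative to the third larval stage that worms form when crowded, starved or heated. The dauer larva does not feed, wears a thick, ridged cuticle, is thin, survives stress and can wait for months. Insulin signalling through the receptor DAF-2, TGF-beta signalling through DAF-7 and the steroid hormone dafachronic acid acting on the nuclear receptor DAF-12 hold larvae on the reproductive path, and weak DAF-2 signalling lets the transcription factor DAF-16 act and sends them into dauer.

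The 6 libraries held 31511056 to 41039421 estimated counts. Every pair of replicates differed by more than sampling noise. The median standard deviation (SD) of log2 CPM (counts scaled to library depth) was 0.156 at 52 h and 0.303 at 60 h, so the later libraries were the more variable. Of 9 dauer markers, 6 were called higher (18.5% of all tested genes were). Their summed level rose from 14436, 18445 and 18866 TPM to 44041, 50492 and 68081 TPM. Most of that sum came from the collagen genes col-2 and col-40 at both times. Of the same 9 markers, 5 were also called higher in daf-2;daf-42, as given at the end. Of 9 adult markers 4 were tested and 2 were called higher, at low levels. Their summed level was 0.981, 0.873 and 0.877 TPM at 52 h and 2.08, 1.78 and 2.03 TPM at 60 h. Each library was placed on a line that ran from the 52 h mean (0) to the 60 h mean (1), the library itself being left out of the means. The 52 h libraries lay at 0.063, 0.022 and 0.020 and the 60 h libraries at 0.851, 0.937 and 0.952. Deviations of the 60 h libraries from their mean followed transcript length, with a Spearman rho across genes of -0.03 in replicate 1, 0.64 in replicate 2 and -0.61 in replicate 3; the change from 52 h to 60 h itself had a rho of -0.05. The labels do not say whether replicates were separate cultures, so p-values measure the spread between these samples, which may be technical. In whole larvae, fewer cells of a type and less RNA per cell cannot be told apart.

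Transcript levels changed broadly from 52 h to 60 h. Of 16371 genes tested, 5688 (34.7%) were called at an edgeR adjusted p under 0.05, 3032 higher at 60 h (18.5% of those tested) and 2656 lower (16.2%). With a length offset, a fit that first removes each library's trend with transcript length, 7410 genes were called, 3862 higher and 3548 lower; it is named below where it moves a count by more than 1.5 times. The median change of all genes was 0.07 on the log2 scale. In 7699 of the 16371 genes (47.0%) the libraries of the 2 times did not overlap in TPM, in either direction. Every mention below of times that did not overlap is to be read against that share. Called rises and called falls had nearly the same median size, 2.46-fold each, but their extremes did not match. Past 8-fold there were 421 rises and 12 falls, past 16-fold 247 rises and 0 falls, and past 64-fold 87 rises. The largest fall was 3.63 on the log2 scale, whereas the largest rise was 12.21. On chromosome V, which holds many chemoreceptor and other large gene families, 22.8% of tested genes were called higher and 20.1% lower. On chromosome III the shares were 13.4% and 13.9%.

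**Figure D1:**
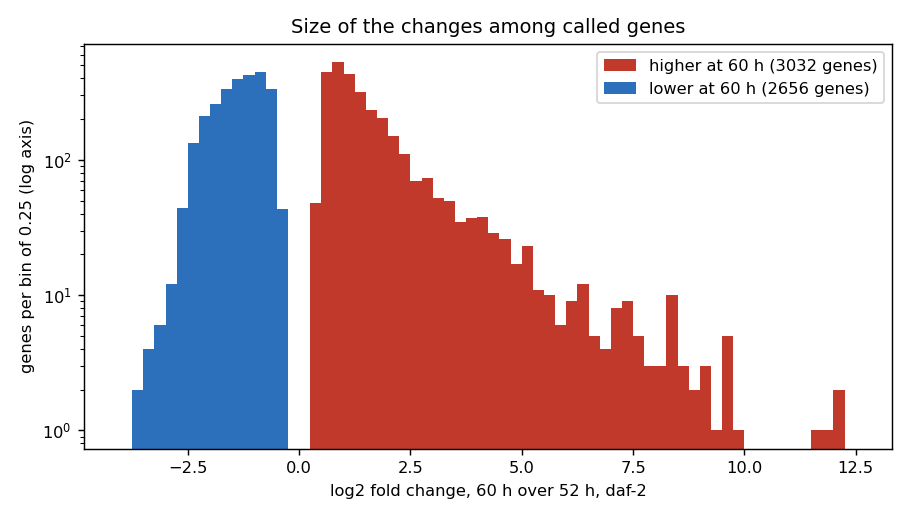
Distribution of the log2 fold change (60 h over 52 h, x axis) among the genes called in daf-2, with the number of genes per bin of 0.25 on a log y axis. The 3032 genes called higher extend past 12 on the log2 scale, and the 2656 genes called lower end at -3.63.

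Lists of genes were read against these shares. Among lists with at least 13 tested genes, the share of called genes ran from 0 of 81 cytosolic ribosomal protein genes to 29 of 33 proteasome subunit genes. Falls prevailed among fatty acid desaturases and elongases, digestive proteases, moulting factors and C-type lectins. Rises prevailed among neuropeptides and transthyretin-related genes. They were also more frequent than falls among the chemoreceptors that could be tested, 467 of 1309, a share that depended on the filter. The accounts below follow the cuticle, the secreted proteins, the endocrine pathways, stress resistance, metabolism, growth, the gut and the nervous system.

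**Figure D2:**
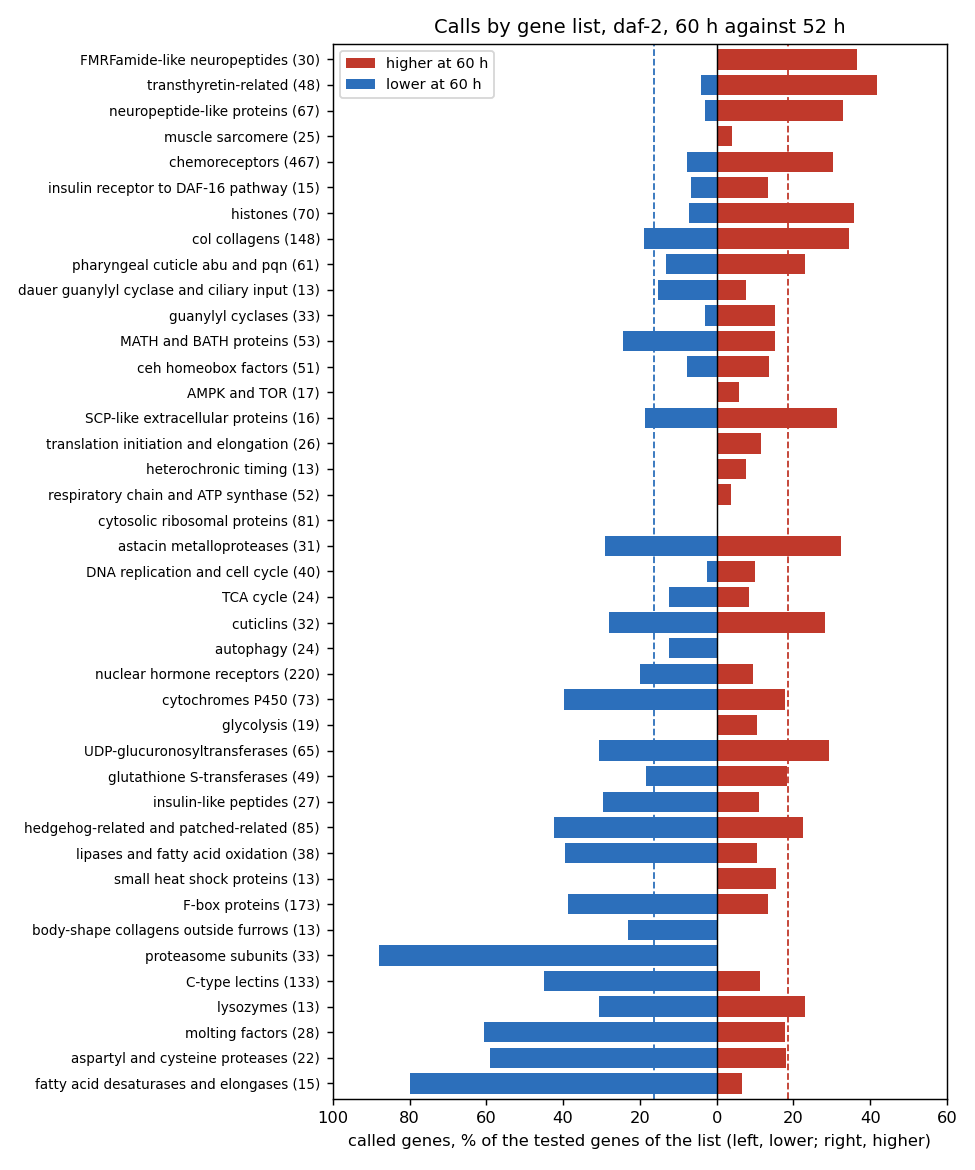
Share of the tested genes of each list (number in brackets, lists with at least 13 tested genes) that were called higher at 60 h (red, right) or lower at 60 h (blue, left) in daf-2, ordered by median log2 fold change. Dashed lines mark the shares over all tested genes, 18.5% higher and 16.2% lower; proteasome subunits reach 87.9% on the left.

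The 8 largest rises among called, well-measured genes with no shared reads, chosen also to have no overlap between the times, were those of tyr-3, scl-11, asp-9, F57F4.2, epic-3, C23H5.15, scl-13 and scl-12, from 7.85 to 9.23 on the log2 scale. The gene tyr-3 (chromosome I, 7274282 to 7278573, WBcel235), for a tyrosinase, an enzyme class that oxidises tyrosine, measured 0.332, 0.316 and 0.396 TPM at 52 h and 169, 264 and 163 TPM at 60 h (log2 change 9.23, SE 0.34, edgeR adjusted p 1.29e-08). It was the lowest of these 8 genes at 52 h, and all 3 later libraries lay far above the earlier ones. The aspartyl protease gene asp-9 (chromosome IV, 6185889 to 6189324) measured 1.93, 1.03 and 0.903 TPM and then 411, 536 and 488 TPM (log2 change 8.63, SE 0.51, edgeR adjusted p 2.65e-07). It went against its family, in which 13 of 22 tested genes fell. F57F4.2 (chromosome V, 6389039 to 6389734) measured 1.1, 6.63 and 13.2 TPM and then 2415, 2663 and 2045 TPM, a log2 change of 8.55. Replicate 1 at 52 h was the lowest by far, and the 60 h libraries were close to each other. C23H5.15 (chromosome IV, 2100151 to 2102893) measured 0.97, 0.986 and 2.63 TPM and then 317, 390.3 and 540.5 TPM, and epic-3 (chromosome IV, 1723148 to 1724383) 2.94, 3.67 and 1.71 TPM and then 655, 710.1 and 1232 TPM. F57F4.2 had the highest 60 h levels of the genes whose levels are given in this paragraph, and scl-12 and scl-13 stood higher still.

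The SCP-like extracellular proteins (scl genes), secreted members of the CAP family, held 3 of these 8 genes. The summed level of the family went from 294, 348 and 344 TPM to 10960.2, 11187 and 11219 TPM. At 60 h those 3 genes made up most of it, whereas at 52 h scl-1 alone exceeded their sum. The gene scl-12 (chromosome V, 3812591 to 3813437) measured 24.4, 23.6 and 28.8 TPM at 52 h and 5226, 5442 and 5406 TPM at 60 h (log2 change 7.85, SE 0.37, edgeR adjusted p 8.87e-08). Its neighbour scl-13 (chromosome V, 3810785 to 3811641) measured 14.6, 11 and 14.9 TPM and then 3178, 3278 and 3453 TPM (log2 change 8.07). On chromosome IV, scl-11 (chromosome IV, 13051373 to 13052219) measured 1.47, 6.04 and 5.19 TPM and then 2313, 2226 and 2050.5 TPM (log2 change 9.17). The 60 h replicates of all 3 genes lay close together. Of the 16 tested members, 5 were called higher, among them scl-21 (2.4, 2.35 and 2.12 TPM, then 36.2, 32.9 and 37.9 TPM), and 3 lower, with scl-10 at 2.44, 4.21 and 2.99 TPM and then 0.854, 0.611 and 0.527 TPM. The abundant scl-1 was not called (112, 148 and 143 TPM, then 107, 122 and 159 TPM).

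The 8 largest falls by the same rule were F15H10.8, F20C5.7, Y97E10B.1, oac-41, T12E12.6, C02F5.14, D2024.4 and hpx-2, from -2.94 to -2.52 on the log2 scale. F15H10.8 (chromosome V, 10401447 to 10402904) measured 35.4, 35.5 and 43.2 TPM at 52 h and 6.84, 4.21 and 2.86 TPM at 60 h (log2 change -2.94, SE 0.32, edgeR adjusted p 2.39e-05). The haem peroxidase gene hpx-2 (chromosome V, 13850470 to 13853199) measured 25, 40.5 and 37.2 TPM and then 6.92, 5.79 and 4.01 TPM, and the O-acyltransferase gene oac-41 (chromosome V, 9019314 to 9022178) 28.6, 28.8 and 33.5 TPM and then 5.67, 4.89 and 3.42 TPM. C02F5.14 started highest, at 189.5, 153 and 192 TPM, and stood at 31.4, 17.9 and 29.6 TPM later. C02F5.14 overlaps henn-1 and oac-41 overlaps oac-40; how the quantification used strand is not given in the sources used here, so reads of such partners may be mixed.

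Several changes lay side by side on a chromosome. Runs of at least 5 neighbouring tested genes that all moved at least 4-fold in 1 direction numbered 5. The longest, on chromosome V from 7266321 to 7301553 (35233 bases), held 12 genes, C13A2.1 to C13A2.7, C13A2.10, C13A2.11, F07G11.3, F07G11.4 and the chemoreceptor gene srj-32, with log2 changes from -2.73 to -2.03. Of these, C13A2.4 was the most abundant (217, 203 and 210.5 TPM, then 46.4, 30.6 and 35.5 TPM) and C13A2.3 followed (151, 171 and 168 TPM, then 42.3, 30.7 and 28 TPM). In 5 of the 12 genes some reads were shared with another gene. A second falling run (V, 4022609 to 4038054) held cyp-35A3, cyp-35A4, K09D9.1, C49G7.7 and C49G7.13. A rising run (V, 6554067 to 6561692) held 4 genes for saposin-like proteins, small lipid-binding or pore-forming peptides, beside K04A8.19. In it spp-20 went from 1.73, 0.889 and 1.11 TPM to 175, 155 and 199 TPM (log2 change 7.28), spp-26 from 3.16, 3.09 and 1.96 TPM to 46.9, 47.7 and 65.3 TPM, and spp-27 from 136, 116 and 112 TPM to 446, 346 and 763 TPM. No 60 h library of these 3 overlapped the 52 h range, and all 3 lie within the span of twk-10. The call of K04A8.19 was lost without replicate 2 at 52 h or replicate 3 at 60 h (edgeR adjusted p up to 0.0662). Without K04A8.19 the run would fall short of 5 genes. The other rising runs held K10H10.4, K10H10.5, K10H10.9, K10H10.10 and K10H10.12 on chromosome II (14500422 to 14515117) and D1086.6, D1086.7, D1086.11, D1086.18 and D1086.20 on chromosome V (14071646 to 14087188). K10H10.5 went from 2.01, 0.613 and 0.627 TPM to 62.7, 73 and 96.1 TPM, whereas the highest D1086 level in any library was 6.68 TPM (D1086.7).

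Collagen genes of the cuticle changed in both directions. Cuticle collagens are the main protein of the worm's outer coat and are made in bursts before each moult, each stage using its own set. The col genes together held 11.4% of all TPM at 52 h and 15.5% at 60 h (summed levels 105253, 118438 and 117802 TPM, then 133860.0, 155304 and 175549 TPM). Of 148 tested col genes, 51 were called higher and 28 lower, with a median log2 change of 0.32 against 0.07 for all genes. Of the 8 genes with the largest gain in mean TPM, 6 were collagens (col-37, col-2, col-40, col-85, col-183 and col-51), and of the 8 with the largest loss, 5 (col-43, col-36, col-158, col-84 and rol-8).

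Among the gains, col-37 (chromosome V, 12166706 to 12167753) measured 4924, 5714 and 5968 TPM at 52 h and 16626, 20124 and 28149 TPM at 60 h (log2 change 2.14, SE 0.43, edgeR adjusted p 0.00221). The dauer collagen gene col-2 (chromosome IV, 10084439 to 10085451) measured 6757, 8588 and 8367 TPM and then 18702, 21128 and 29609 TPM, which made it the most abundant of the 6 at 60 h. Larger in proportion were col-51, from 464, 704 and 715 TPM to 4253, 8835 and 9675 TPM, and col-85, from 1219, 1296 and 1385 TPM to 7792, 11884 and 15336 TPM. Replicate 3 was the highest 60 h library in each of these 4 genes, and col-51, col-85 and col-183 shared some reads with other genes. Further down in level, col-150 went from 48.1, 38.4 and 31.7 TPM to 724, 661 and 771 TPM (log2 change 4.32), col-151 from 2.69, 3.73 and 4.38 TPM to 134, 186 and 217 TPM and col-106 from 1.42, 1.17 and 1.41 TPM to 52.6, 34.4 and 94.2 TPM. The libraries of the 2 times did not overlap for any of these, as was so for 47.0% of all tested genes.

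Among the losses, col-43 (chromosome V, 8049703 to 8050911) measured 17974, 18938 and 19290.5 TPM at 52 h, more than any other gene named in this paragraph, and 8441, 9320.3 and 3701 TPM at 60 h (log2 change -1.33, SE 0.46, edgeR adjusted p 0.0377). The gene col-158 (chromosome V, 11829582 to 11831219, overlapping nphp-4) measured 11439.7, 14958 and 13968 TPM and then 5372, 4754 and 4157 TPM, and rol-8 (chromosome II, 7544108 to 7545335), a collagen gene that shapes the body, 8398, 7871 and 7081 TPM and then 3682, 3739 and 1401 TPM. In col-43 and rol-8 replicate 3 fell further than the other 60 h libraries. In none of the 3 did the times overlap. The calls of col-43, col-36, col-84 and rol-8 were not kept without replicate 2 or without replicate 3 at 52 h, the direction being the same. Those of col-43, col-36 and rol-8 were also lost without replicate 1 at 52 h, those of col-43, col-36 and col-84 without replicate 1 at 60 h, those of col-43 and rol-8 without replicate 3 at 60 h, and that of col-43 without replicate 3 of the double mutant at 60 h. With 1 library left out, edgeR adjusted p reached 0.113 for col-43, 0.0651 for col-36, 0.0616 for col-84 and 0.0925 for rol-8.

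**Figure D3:**
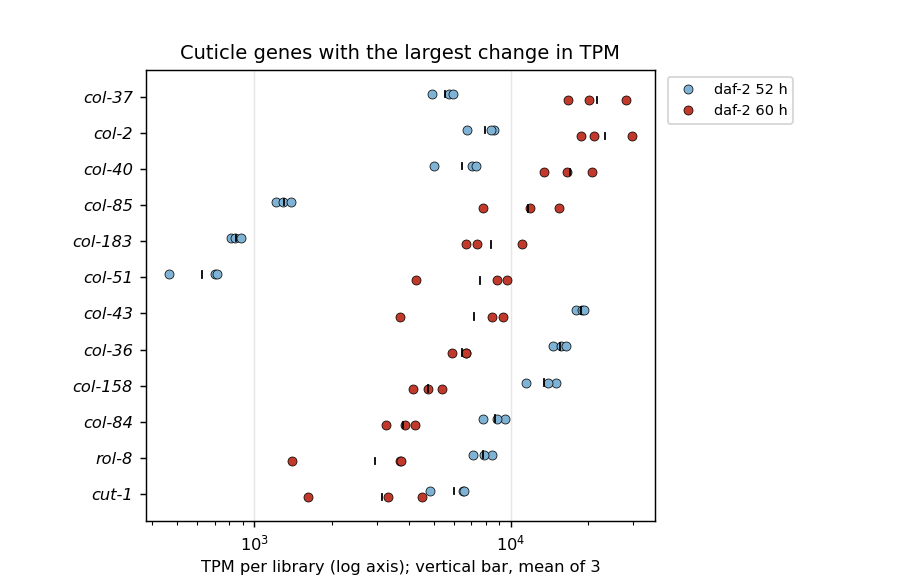
Level in TPM per library (log x axis) of the cuticle genes among the 16 genes with the largest gain or loss of mean TPM in daf-2; points are libraries (blue, 52 h; red, 60 h) and the vertical bar is the mean of 3. In every gene shown the libraries of the 2 times do not overlap, as in 47.0% of all tested genes. The loss of cut-1 did not pass the test.

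The furrow collagens, which form the rings that cross the cuticle, all fell: 6 of 6 were called lower, with a median log2 change of -1.95. Their summed level went from 849, 926 and 842 TPM to 295, 189 and 146 TPM. The gene dpy-7 (chromosome X, 7536467 to 7537792) measured 111, 147 and 120.4 TPM and then 38, 21.1 and 25.6 TPM (edgeR adjusted p 0.000535), and dpy-2 129.6, 148 and 131 TPM and then 38.2, 23.1 and 23.6 TPM. Replicate 1 was the highest 60 h library in dpy-2, dpy-3, dpy-7, dpy-8, dpy-9 and dpy-10 alike. Of 13 body-shape collagens outside the furrows, 3 were called lower; without any 1 of the 52 h libraries, or without replicate 3 at 60 h, 1 was. Of these, sqt-3 measured 2243, 1761 and 1862 TPM and then 773, 762 and 194 TPM, with reads shared in 8 libraries and an edgeR adjusted p of up to 0.112 with 1 library left out.

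Enzymes that fold and link collagen fell more than they rose, 4 of 9 tested genes being called lower and 1 higher. The prolyl 4-hydroxylase genes dpy-18 (199, 219 and 208 TPM, then 83.8, 93.2 and 50.1 TPM) and phy-2 (239.7, 246 and 241 TPM, then 82.9, 64.7 and 73.6 TPM) and the thioredoxin-like dpy-11 (382, 472 and 445 TPM, then 148, 112 and 102 TPM) were among the 4. Their partner pdi-2 was not called (1661, 1224 and 1331 TPM, then 683, 680.4 and 319 TPM, log2 change -1.28, edgeR adjusted p 0.0575). The rise was that of mlt-7, for a peroxidase that cross-links the cuticle, which rose from 15.7, 21.2 and 19.8 TPM to 41.3, 60.9 and 31.4 TPM.

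Of 28 moulting factors, 17 were called lower and 5 higher, with a median log2 change of -1.16. The falls included proteins of the pre-cuticle, the matrix laid down ahead of the new cuticle. Largest in proportion was that of mlt-9 (149.5, 207 and 210.3 TPM, then 55.4, 58.1 and 21.9 TPM, log2 change -2.01). The gene noah-1 measured 164, 158 and 155 TPM and then 62.2, 53.2 and 12.2 TPM, noah-2 233, 240.2 and 234 TPM and then 86.3, 79.9 and 20.9 TPM, and the lipocalin gene lpr-3 253, 212 and 207 TPM and then 87.9, 73.2 and 20.5 TPM. Replicate 3 was the lowest 60 h library in each, several times below the other 60 h libraries, and still the groups did not overlap. The rises were led by the proteases of ecdysis, the shedding of the old cuticle. The astacin gene nas-37 (chromosome X, 9944844 to 9949063) went from 2.21, 2.38 and 2.43 TPM to 33.4, 50.7 and 23.7 TPM (log2 change 3.95, SE 0.20, edgeR adjusted p 1.03e-07; it overlaps C17G1.5) and nas-36 from 3.59, 3.02 and 2.98 TPM to 9.23, 13.3 and 9.48 TPM. The protease inhibitor gene bli-5 rose from 7.63, 6.88 and 6.36 TPM to 15.8, 22 and 30.9 TPM.

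The wider astacin family, zinc proteases of the extracellular space, split evenly, with 10 of 31 tested genes called higher and 9 lower. The largest rise was that of nas-10, from 0.0291, 0.108 and 0.198 TPM to 36.9, 35.4 and 26.1 TPM; it overlaps K09C8.2. Others were nas-4 (11.8, 16.6 and 16.7 TPM, then 85.5, 102 and 92.8 TPM), nas-30 (6.67, 8.66 and 9.74 TPM, then 26.7, 67.1 and 34.3 TPM) and toh-1 (7.98, 7.95 and 8.02 TPM, then 33.4, 59.7 and 27.4 TPM), while nas-15 fell (65.4, 118 and 131 TPM, then 30.9, 45.6 and 12.7 TPM). The cuticlins, insoluble cuticle proteins, also split, 9 of 32 higher and 9 lower. Rises were steep in cut-4 (3.17, 2.22 and 2.85 TPM, then 71.9, 122 and 66.3 TPM, log2 change 5.04) and cutl-23 (10.0, 14.4 and 14.6 TPM, then 146, 189 and 128 TPM), which overlaps rev-3. Falls were seen in cut-5 (139, 153 and 154 TPM, then 42, 29.2 and 25.6 TPM) and cut-6 (218, 297 and 297 TPM, then 81.5, 80.8 and 54.3 TPM). The most abundant member, cut-1, did not pass the test (4840.0, 6488 and 6589 TPM, then 3306, 4518 and 1625 TPM, log2 change -0.88, edgeR adjusted p 0.137). Its 60 h libraries nevertheless all lay below its 52 h libraries, and such a separation, in either direction, was seen in 47.0% of all tested genes.

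Hedgehog-related and patched-related proteins, secreted or membrane proteins of the epidermis, included 36 of 85 called lower and 19 higher. The largest changes were rises. The gene grl-24 measured 0.553, 0.825 and 1.69 TPM and then 67.2, 77.1 and 107 TPM (log2 change 6.53), the steepest of them. The gene grd-4 (chromosome X, 8501222 to 8502288) measured 80.5, 65.8 and 84 TPM and then 1165, 1048 and 2318 TPM (log2 change 4.51), and grl-21 15.1, 3.25 and 2.31 TPM and then 192, 223 and 215 TPM. A rise was also called for grd-14 (11.6, 5.68 and 4.63 TPM, then 190.1, 209 and 276 TPM). Among the patched-related genes ptr-3 (8.13, 5.76 and 7.43 TPM, then 61, 135 and 69.2 TPM), ptr-13 (8.79, 12.1 and 13.6 TPM, then 60.7, 91.6 and 55.3 TPM) and ptr-23 (9.23, 11.1 and 12.56 TPM, then 72, 152 and 74.1 TPM) rose, with replicate 2 the highest 60 h library in each. None of these overlapped between the times, as was so for 47.0% of all tested genes. Of the abu and pqn genes, which code for proteins of the pharyngeal cuticle, 14 of 61 were called higher and 8 lower. These shares, 22.95% and 13.1%, were not far from the 18.5% and 16.2% of all genes. The rises were 9 without replicate 1 at 52 h or without replicate 2 at 60 h. The largest gain in TPM was that of abu-8 (57, 54.7 and 62.7 TPM, then 177, 460.0 and 93.6 TPM), which shared reads in every library.

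Of 27 tested genes for insulin-like peptides, a family that holds the ligands of DAF-2, 8 were called lower and 3 higher, the latter 7 without replicate 2 at 60 h or with the length offset. The summed level went from 1642, 1799.7 and 1915 TPM to 1024, 672 and 1377 TPM. The most abundant, ins-35 (chromosome V, 20375536 to 20376302), measured 663, 718 and 879.6 TPM and then 242, 99.7 and 296 TPM (log2 change -1.59, SE 0.41, edgeR adjusted p 0.00918), and ins-33 76.5, 87 and 74.6 TPM and then 27.4, 15.1 and 25.9 TPM. The DAF-2 agonist gene daf-28 fell from 6.15, 11 and 8.3 TPM to 4.77, 3.43 and 1.65 TPM, and the peptide genes ins-4 (18.2, 20.5 and 27.8 TPM, then 8.78, 8.09 and 10.1 TPM) and ins-5 (24.8, 32.9 and 33 TPM, then 11.6, 9.04 and 13.8 TPM) fell too. The agonist gene ins-6 went the opposite way, from 0.987, 2.22 and 1.75 TPM to 19.7, 18.1 and 21.6 TPM (log2 change 3.75), as did ins-15, from 3.16, 5.9 and 4.42 TPM to 23.6, 23.3 and 35.4 TPM. The second most abundant, ins-27, was not called (346, 379 and 350.2 TPM, then 223, 143 and 313 TPM).

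Of 15 genes downstream of the receptor, from DAF-2 to DAF-16, 2 were called higher and 1 lower; with the length offset 6 were called higher. The kinase gene akt-2 rose from 15.1, 23.9 and 27.2 TPM to 32.7, 44.5 and 31.1 TPM (log2 change 0.81, edgeR adjusted p 0.00708), and the related kinase gene sgk-1 fell from 6.09, 5.63 and 5.68 TPM to 3.73, 2.6 and 1.78 TPM (log2 change -0.99). The gene daf-2 itself (14.8, 19.8 and 21.5 TPM, then 23.3, 41 and 9.99 TPM, with reads shared in 9 libraries) was not called; the labels name its allele, and a point mutation would not show in a level. Of 7 TGF-beta pathway genes none was called by edgeR, none had an unadjusted p under 0.05 and DESeq2 called none; with the length offset 1 was called higher, daf-3 (6.54, 9.54 and 9.76 TPM, then 11.7, 23.4 and 7.63 TPM), for a Smad protein. The ligand gene daf-7 measured 49.6, 65.6 and 63.4 TPM and then 51.1, 57.3 and 32.1 TPM (log2 change -0.26, SE 0.22).

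Among 9 genes of dafachronic acid and DAF-12, 3 were called lower and 1 higher. The falls were dhs-16, for a steroid dehydrogenase of hormone synthesis (23.8, 31.1 and 31.3 TPM, then 8.09, 7.24 and 7.22 TPM, log2 change -1.80, edgeR adjusted p 3.86e-05), strm-1, for a sterol methyltransferase (19.5, 26.3 and 23.7 TPM, then 6.92, 5.3 and 7.16 TPM), and daf-36, for the first enzyme of the pathway (9.32, 9.65 and 8.97 TPM, then 5.89, 4.84 and 4.9 TPM). The call of daf-36 was lost without any 1 of the 52 h libraries or without replicate 2 at 60 h (edgeR adjusted p up to 0.0828). The 60 h libraries of all 3 lay below the 52 h libraries; each overlaps another gene (C10F3.7, mrpl-30 and C12D8.20). The rise was that of hsd-1, for a hydroxysteroid dehydrogenase, which stayed under 1 TPM (0, 0 and 0.042 TPM, then 0.599, 0.705 and 0.613 TPM) and was not tested where a gene needed 1 CPM in 3 libraries. The receptor gene daf-12 was not called (51.6, 70.0 and 79 TPM, then 95.8, 179 and 49 TPM). The genes called higher were 2 without replicate 3 of daf-2 at 60 h, without replicate 1 of the double mutant at 60 h or with the 6 daf-2 libraries alone, and 3, daf-12 among them, with the length offset. Of 13 heterochronic genes, which time larval fates, 1 was called: lin-46 rose from 0.989, 0.553 and 0.794 TPM to 5.62, 6.16 and 6.76 TPM (log2 change 3.11, edgeR adjusted p 6.62e-05). With the length offset 2 were called higher and 2 lower, without replicate 3 at 60 h 2 higher, and without replicate 2 at 60 h 2 lower, lin-42 among them. The period-like gene lin-42, far more abundant, was not called (178, 456 and 467 TPM, then 131, 326 and 65.8 TPM, log2 change -0.99).

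Ascarosides, the pheromone that worms use to sense crowding, are made by enzymes of the peroxisome. Of 8 tested genes for them, 5 were called higher and 1 lower, with a median log2 change of 0.86; without replicate 1 at 52 h, 3 were called higher, and the edgeR adjusted p of daf-22 was 0.0523. The gene daf-22, for the thiolase of the last step, went from 80.05, 133 and 120.4 TPM to 168, 208 and 189.8 TPM (0.89 on the log2 scale, SE 0.24, edgeR adjusted p 0.0106), dhs-28 from 85.1, 110.5 and 107 TPM to 174, 232 and 168 TPM and acox-3 from 28.1, 45.4 and 37.9 TPM to 67, 101 and 55 TPM. The acyl-CoA synthetase gene acs-7 rose from 11.6, 17.2 and 13.9 TPM to 33.9, 44.5 and 30.9 TPM. The hydratase gene of the same cycle, maoc-1, was not called and stood lower at 60 h (49, 50.7 and 53.3 TPM, then 39.4, 35.8 and 36.9 TPM). In acox-1.4, the gene called lower, the times overlapped, reads were shared with other genes, and the call was lost without replicate 2 or 3 at 52 h or replicate 1 or 3 at 60 h (edgeR adjusted p up to 0.151).

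Stress genes split by class. Of 8 superoxide dismutase and catalase genes, 4 were called higher. They were sod-5 (12.59, 7.29 and 13.2 TPM, then 51, 32.5 and 52.8 TPM, log2 change 2.21, edgeR adjusted p 0.000677) and the catalase genes ctl-1, ctl-2 and ctl-3, which share reads; without replicate 1 at 52 h, 2 were called, and with the length offset 2 genes were called lower. The FOXO target sod-3 was not called (187, 229 and 237 TPM, then 206, 168 and 224 TPM). Of 13 small heat shock genes, 2 were called higher, hsp-12.6 and sip-1 (311, 248 and 185 TPM, then 654, 710.0 and 274 TPM, overlapping). The call of sip-1 was lost without replicate 2 or 3 at 52 h or replicate 1 or 2 at 60 h (edgeR adjusted p up to 0.0865). Without replicate 2 at 52 h, 5 small heat shock genes were called lower, and without replicate 3 at 60 h, 4; DESeq2 called 4 lower and the length offset gave 5. The 2 copies of hsp-16.48 shared reads and had identical levels in every daf-2 library, so 1 signal enters these counts as 2 genes. The 52 h replicate 1 stood apart among the small heat shock genes. Its level of hsp-16.1 (chromosome V, 9090077 to 9090604; the copy of that name at 9087293 to 9087782 was at 0 in every library) was 7308 TPM against 90.5 and 774 TPM in the other 52 h libraries, and its summed small heat shock level 13339 TPM against 844 and 2014 TPM, where the 60 h libraries held 2748, 2498 and 3653 TPM. Without it 4777 genes were called over time in daf-2. The hsp-70 level was 907, 50.6 and 265 TPM at 52 h and 83.2, 55 and 217 TPM at 60 h. Of the larger chaperones only hsp-4, the chaperone of the endoplasmic reticulum, was called, and it fell from 398, 209.9 and 278 TPM to 99.9, 109 and 74 TPM (log2 change -1.60, edgeR adjusted p 0.00184); with the length offset 1 was also called higher. The metallothionein gene mtl-1 rose (677, 905 and 980.3 TPM, then 2487, 2336 and 3849.6 TPM) and its paralogue mtl-2 was not called (129.7, 165 and 174 TPM, then 69.5, 44.9 and 105 TPM).

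Detoxification families changed in both directions. Of 73 cytochrome P450 genes, 29 were called lower (39.7%) and 13 higher (17.8%), and of 65 UDP-glucuronosyltransferase genes 20 lower (30.8%) and 19 higher (29.2%). Of 49 glutathione S-transferase genes 9 were called lower (15 with the length offset) and 9 higher. These last shares, 18.4% each way, were near those of all genes, 16.2% lower and 18.5% higher. The steepest P450 rise was that of cyp-32A1 (1.27, 0.967 and 1.17 TPM, then 55.9, 59 and 53.3 TPM, log2 change 5.73, SE 0.25, edgeR adjusted p 5.5e-08), followed by cyp-37B1 (4.13, 3.27 and 2.63 TPM, then 31.8, 35.2 and 35.4 TPM). Among the transferases ugt-59 rose from 1.31, 1.42 and 1.27 TPM to 17.5, 20.8 and 22.8 TPM and ugt-44 fell from 19.9, 34.7 and 26.5 TPM to 7.34, 5.89 and 2.11 TPM. The gene gst-42 fell from 143, 133 and 138 TPM to 43.1, 23.8 and 30.3 TPM, while gst-41 rose from 9.12, 8.53 and 10.1 TPM to 26.4, 36.9 and 37.7 TPM. No gene named here for its change overlapped between the times, as was so for 47.0% of all tested genes. The gene ugt-59 overlaps sir-2.1 and cyp-37B1 overlaps F28G4.2.

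In metabolism, the clearest shift was in genes that build long and unsaturated fatty acids. Of 15 tested desaturase and elongase genes, 12 were called lower and 1 higher, and the median log2 change was -1.42. Their summed level went from 5447, 6567 and 6405 TPM to 2407, 2120.0 and 2371 TPM. The stearoyl desaturase gene fat-6 (chromosome IV, 11913692 to 11915687) measured 1026, 1141 and 1058 TPM and then 349.9, 283 and 314 TPM (log2 change -1.63, SE 0.24, edgeR adjusted p 0.000236). The elongase gene elo-4 measured 649, 716 and 753 TPM and then 159, 100.5 and 139 TPM, and the desaturase genes fat-3 and fat-4 of polyunsaturated fats 173, 188 and 194 TPM, then 49.4, 40.2 and 54.8 TPM, and 338, 344 and 349 TPM, then 115, 81 and 90.8 TPM. Each of the 4 had all 60 h libraries below all 52 h libraries. Over all tested genes 47.0% showed no overlap, in either direction. The palmitoyl desaturase gene fat-5 was not called (203, 473 and 359 TPM, then 245, 363 and 278 TPM).

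Of 38 genes of lipases and fatty acid oxidation, 15 were called lower and 4 higher. The lysosomal lipase gene lipl-4 rose from 8.91, 13.4 and 15 TPM to 56.6, 66.2 and 61.7 TPM (log2 change 2.44, edgeR adjusted p 1.71e-05), while lipl-1 (38.1, 61.3 and 71 TPM, then 14.6, 11.6 and 17.1 TPM), lipl-6 (13.1, 14.5 and 15 TPM, then 3.91, 3.23 and 1.52 TPM) and lipl-7 (27, 26.4 and 30.3 TPM, then 8.22, 6.49 and 7.19 TPM) fell. Carbohydrate genes moved less. Of 19 glycolysis genes 2 were called higher, of 24 citric acid cycle genes 2 higher and 3 lower, and of 52 respiratory chain and ATP synthase genes 2 higher. These shares are below those of all genes, and with 1 library left out they went as low as 1, 0 and 0 higher. The length offset also gave 2 respiratory chain and ATP synthase genes called lower. Of the 2 phosphoenolpyruvate carboxykinase genes for glucose synthesis, pck-1 fell (237, 265 and 324 TPM, then 130.3, 145 and 108 TPM, the call being lost without replicate 3 at 52 h or replicate 1 at 60 h, with edgeR adjusted p up to 0.077) and pck-2 was not called (573, 503 and 539 TPM, then 582, 670.5 and 311 TPM). The glyoxylate cycle gene icl-1, known to be high in dauer larvae, was not called (552, 504 and 645 TPM, then 817, 935 and 369 TPM, log2 change 0.36, edgeR adjusted p 0.592), with replicate 3 below the 52 h range and the other 60 h libraries above it. The trehalase gene tre-5, which overlaps sptl-1, rose from 0.821, 0.865 and 0.649 TPM to 13.4, 17.4 and 15.3 TPM (log2 change 4.42). The more abundant tre-2 and tre-3 were called lower, by at most 0.60 on the log2 scale. Neither call held without replicate 2 or 3 at 52 h or without replicate 3 at 60 h (edgeR adjusted p up to 0.107 and 0.0898). The call of tre-3 was also lost with the length offset. Of 17 genes of AMP-activated kinase and TOR, 1 was called: aakg-4, for a regulatory subunit of the kinase, rose from 7.67, 9.97 and 10.5 TPM to 27.2, 35 and 16.2 TPM (log2 change 1.54). With the length offset 4 were called higher and 1 lower.

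Genes of growth differed by complex. None of 81 cytosolic ribosomal protein genes was called by edgeR, against 34.7% of all genes; 1 had an unadjusted p under 0.05, DESeq2 called 1, and the length offset gave 2. Their median log2 change was -0.01. Their summed level was 173682, 149224 and 141276 TPM at 52 h and 158669, 112245 and 143305 TPM at 60 h, with overlap. Of 26 translation factor genes 3 were called higher, and with the length offset 1 was called lower. Among the rises was eif-6, for a factor of the large ribosomal subunit (25.1, 26.2 and 24.2 TPM, then 56.5, 52.1 and 48.6 TPM, overlapping the gene gale-1). The proteasome degrades tagged proteins. Of 33 subunit genes, 29 were called lower, with a median log2 change of -0.80 and a range from -1.16 to -0.25. The summed level went from 4783, 5154 and 4973 TPM to 2949, 2567 and 2423 TPM. The lid subunit gene rpn-3 measured 185, 136 and 145 TPM and then 76.2, 65.2 and 53.6 TPM, the ATPase subunit gene rpt-3 118, 118.8 and 120.2 TPM and then 70.1, 59.3 and 43.5 TPM, and the core subunit gene pbs-5 222, 257 and 240.0 TPM and then 133, 116 and 104.5 TPM. All of their 60 h libraries lay below the 52 h libraries, where 47.0% of all tested genes showed no overlap in either direction. The falls were modest, and against a minimum change of 1.5-fold 2 of the 29 calls were left.

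Of 40 DNA replication and cell cycle genes, 4 were called higher and 1 lower. The rises were 1 or 2 without any 1 of the 52 h libraries or without replicate 1 or 3 at 60 h, and the falls were 2 with the length offset. The ribonucleotide reductase gene rnr-2, whose enzyme makes DNA precursors, fell from 27, 36.6 and 32.7 TPM to 17, 15.2 and 13.1 TPM (log2 change -0.97, edgeR adjusted p 0.000745), and cki-2, for an inhibitor of cell cycle kinases, rose from 11.4, 10.1 and 9.5 TPM to 19.6, 23.2 and 14 TPM. Of 70 histone genes, 25 were called higher and 5 lower, the latter 13 with the length offset and 2 without any 1 of the 52 h libraries or without replicate 2 at 60 h, and 3 without replicate 2 of the double mutant at 52 h. Many of them are identical copies that share reads and polyadenylated histone messages are a minority, so these counts are uncertain. Germline markers were called higher in 2 of 9 genes (1 without replicate 1 or 3 at 52 h or replicate 2 at 60 h, 4 without replicate 1 at 60 h, 5 with the length offset), and their summed level was 66.9, 119.1 and 115 TPM and then 102, 239 and 109 TPM. Of 24 autophagy genes, 3 were called lower, among them bec-1 (71.3, 65.1 and 81.1 TPM, then 43.3, 33.5 and 38.7 TPM; edgeR adjusted p up to 0.0735, without replicate 1 or 3 at 52 h or replicate 2 at 60 h), while lgg-1, the most abundant, was not called (1417, 1097 and 1184 TPM, then 1402, 1162 and 2336 TPM); with the length offset 2 were called higher.

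Digestive proteases of the gut fell more often than they rose. Of 22 aspartyl and cysteine protease genes, 13 were called lower and 4 higher, with a median log2 change of -1.39. The cathepsin B-like gene cpr-6 (chromosome X, 6607207 to 6609045) measured 1486, 2172 and 2113 TPM and then 515, 528 and 496 TPM (log2 change -1.78, SE 0.27, edgeR adjusted p 0.000316), cpr-4 979.7, 855 and 729.6 TPM and then 358, 213 and 78.5 TPM, and cpr-9 563, 586 and 591 TPM and then 201, 113 and 116 TPM. The replicates of cpr-6 at 60 h were close, and those of cpr-4 spread widely, with replicate 3 lowest. The saposin-like gene spp-14 (chromosome X, 7725979 to 7726383), 1 of the 8 largest losses in TPM, went from 4956, 4511 and 4313 TPM to 1868, 894 and 1733 TPM (log2 change -1.42). Intestinal markers did not move as 1 block. The transcription factor gene elt-7 (19.4, 24 and 22.4 TPM, then 9.38, 7.62 and 5.9 TPM) and the esterase gene ges-1 (28.9, 29.7 and 30.4 TPM, then 13.1, 11.3 and 8.28 TPM) fell, the proton pump gene vha-6 rose (51.8, 43 and 42.4 TPM, then 100, 130.3 and 83.1 TPM) together with ifb-2, which shares reads, and elt-2 was not called (7.16, 16.5 and 14.3 TPM, then 12.8, 20.0 and 10.3 TPM).

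Of 133 tested C-type lectin genes, for sugar-binding secreted proteins many of which respond to microbes, 60 were called lower and 15 higher, with a median log2 change of -0.90. The rises included clec-59 (0.971, 0.163 and 0.608 TPM, then 77.4, 74.3 and 83.4 TPM, log2 change 7.16) and clec-101 (45.7, 53.3 and 46.7 TPM, then 355, 434 and 524 TPM). Of 13 tested lysozyme genes, 3 were called higher and 4 lower. The invertebrate-type gene ilys-3 rose from 12.1, 15.9 and 14.3 TPM to 691, 430.3 and 370.3 TPM (log2 change 5.28, SE 0.43, edgeR adjusted p 2.74e-06) and lys-3 from 32.8, 26.5 and 24.5 TPM to 137, 139 and 177 TPM. The genes lys-8 (388, 354 and 369 TPM, then 133, 79.7 and 122 TPM) and lys-2 (152, 180.3 and 199.5 TPM, then 50.9, 30.9 and 75.1 TPM) fell. Of 10 caenacin genes, for antimicrobial peptides of the epidermis, 4 were called lower and 1 higher, with 2 falls left without replicate 1 at 52 h or without replicate 2 at 60 h. The gene cnc-3 went from 179.8, 172 and 150.3 TPM to 54.8, 29.2 and 54.1 TPM, and the antimicrobial peptide gene nlp-24 from 1220.5, 1456 and 1384 TPM to 467, 274 and 489 TPM.

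Neuropeptide genes rose more often than they fell. Of 30 FMRFamide-like (flp) neuropeptide genes, 11 were called higher, with a median log2 change of 0.70, and of 67 neuropeptide-like (nlp) genes 22 were called higher and 2 lower. For flp, the rises were 6 without replicate 2 or replicate 3 at 52 h, 5 without replicate 3 at 60 h and 21 without replicate 2 at 60 h. For nlp, they were 10 and 12 without replicates 2 and 3 at 52 h and 8 without replicate 3 at 60 h. Neuropeptide genes are short, and the 60 h libraries diverged by transcript length. With the length offset the rises were 18 for flp and 28 for nlp, and 6 nlp genes were called lower. The gene flp-32 measured 109.6, 106 and 103.7 TPM and then 246, 201 and 360.3 TPM (log2 change 1.54, SE 0.36, edgeR adjusted p 0.00529), and flp-21 96.1, 89.7 and 90.2 TPM and then 178, 140.3 and 229.8 TPM. Steeper and tighter were nlp-45, from 2.98, 2.56 and 2.98 TPM to 22.9, 20.9 and 15.5 TPM (it overlaps T01B6.1), and nlp-67, from 20.2, 26.9 and 25 TPM to 106, 125 and 91.3 TPM. Of 7 neuronal markers 2 were called higher, ric-4, for a synaptic vesicle fusion protein (83.9, 91.3 and 83.9 TPM, then 124, 125 and 113 TPM), and rab-3; without replicate 2 or 3 at 52 h or without replicate 3 at 60 h, neither was (edgeR adjusted p up to 0.0819 and 0.141), and with the length offset 4 were called higher.

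Of 467 chemoreceptor genes tested, 142 (30.4%, against 18.5% of all genes) were called higher and 36 lower, with a median log2 change of 0.44. Their levels were low. All 1309 measured members together held 581, 533 and 570.2 TPM at 52 h and 667, 702 and 613 TPM at 60 h, and 842 of them were not tested. A low gene could pass the filter through 1 group in which it was high, so the share of rises depends on the filter. Where a gene needed 1 CPM in 3 libraries to be tested, 58 chemoreceptor genes were called higher, while rises among all genes went from 3032 to 2644. The gene srx-125 rose from 2.99, 2.42 and 1.64 TPM to 6.65, 11.2 and 17.8 TPM (it overlaps ifbp-1), and srw-2 fell from 5.19, 6.64 and 5.87 TPM to 1.41, 0.975 and 0.742 TPM. Of 13 genes of ciliary input to the dauer decision, 2 were called lower and 1 higher. The rise was that of the guanylyl cyclase gene daf-11 (0.761, 0.722 and 0.9 TPM, then 1.08, 1.66 and 0.87 TPM, edgeR adjusted p 0.0462), whose times overlapped and whose call was lost in 10 of the 12 fits with 1 library left out, among them every fit without a daf-2 library, with RLE scaling and with no filter (edgeR adjusted p up to 0.155 with 1 library left out). Among the falls daf-6, which shapes the sensory channel in glia, fell from 9.16, 9.57 and 10.7 TPM to 3.73, 3.23 and 2.06 TPM (log2 change -1.62, edgeR adjusted p 4.33e-05) and the channel gene tax-2 from 4.14, 6.47 and 5.96 TPM to 2.85, 2.73 and 1.81 TPM. Transthyretin-related genes, for small secreted proteins, were called higher in 20 of 48 and lower in 2. They included ttr-19, which had at most 3 counts in each 52 h library (0.207, 0.125 and 0.348 TPM) and reached 129.9, 128 and 108 TPM, and ttr-7, from 19.4, 16.7 and 16.7 TPM to 113, 142 and 211 TPM (it overlaps best-17).

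Nuclear hormone receptor and F-box genes had more falls than rises. Of 220 nuclear hormone receptor genes, 44 were called lower (20.0%, near the 16.2% of all genes) and 21 higher (9.5%, against 18.5%). Their median log2 change was -0.15. The rises were 13 without replicate 1 or 2 at 52 h or replicate 2 at 60 h. The gene nhr-280 fell from 14.1, 17.1 and 18.1 TPM to 3.91, 1.34 and 3.9 TPM and nhr-62 rose from 3.28, 4.04 and 3.52 TPM to 10.8, 15.2 and 10.8 TPM (log2 change 1.86, edgeR adjusted p 5.71e-06). Of 173 F-box genes, for adaptors that mark proteins for degradation, 67 were called lower (38.7%) and 23 higher (13.3%), with a median log2 change of -0.57. The F-box rises were 12 to 13 without replicate 2 or 3 at 52 h or replicate 3 at 60 h. The gene fbxa-199 went from 9.74, 8.4 and 7.36 TPM to 1.22, 2.37 and 0.86 TPM. Muscle sarcomere genes were called in 1 of 25 (7 by DESeq2; 6 higher and 1 lower with the length offset), tni-3 (46.9, 45 and 37 TPM, then 99.4, 138 and 54 TPM). The long myosin gene unc-54 measured 808, 1126 and 1284 TPM and then 1167, 4285 and 756 TPM, its 60 h libraries ordered as their length trends were.

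At the level of single transcripts, 5198 of 25037 tested were called (20.8%), 2523 higher (10.1%) and 2675 lower (10.7%). In 43 genes 1 transcript rose and another fell, both called, and in 14 of these both transcripts reached 10 TPM at 1 of the times. The 4 widest splits were in lev-11, dur-1, bli-4 and daf-16. Estimated counts divide reads among overlapping transcripts, so a level of 1 transcript is less certain than that of its gene.

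The gene daf-16 (chromosome I, 10750498 to 10776703) encodes the FOXO transcription factor that DAF-2 restrains, and it has 14 transcripts in the tables. Its total was not called (74.9, 118 and 113 TPM, then 110.3, 187 and 70.0 TPM, log2 change 0.44, edgeR adjusted p 0.3), though it was called higher with the length offset. Transcript R13H8.1l.1 fell from 19.7, 27.8 and 27.6 TPM to 3.92, 3.31 and 1.96 TPM (log2 change -2.99, SE 0.24, edgeR adjusted p 4.22e-05). Its share of all daf-16 TPM was 26.3%, 23.5% and 24.3% in the 52 h libraries and 3.55%, 1.77% and 2.80% in the 60 h libraries. Transcript R13H8.1b.1 rose from 14, 22.3 and 20.3 TPM to 38.6, 73.2 and 24.7 TPM (log2 change 1.27, edgeR adjusted p 0.0155), and its share went from 18.7%, 18.9% and 17.9% to 35.0%, 39.2% and 35.3%. Transcript R13H8.1a.1 measured 28.2, 39.6 and 39.4 TPM and then 36.1, 54.2 and 21.4 TPM and was not called. As shares of the gene, the l.1 and b.1 values of the 2 times lay far apart, although the total of replicate 3 at 60 h was the lowest of all.

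**Figure D4:**
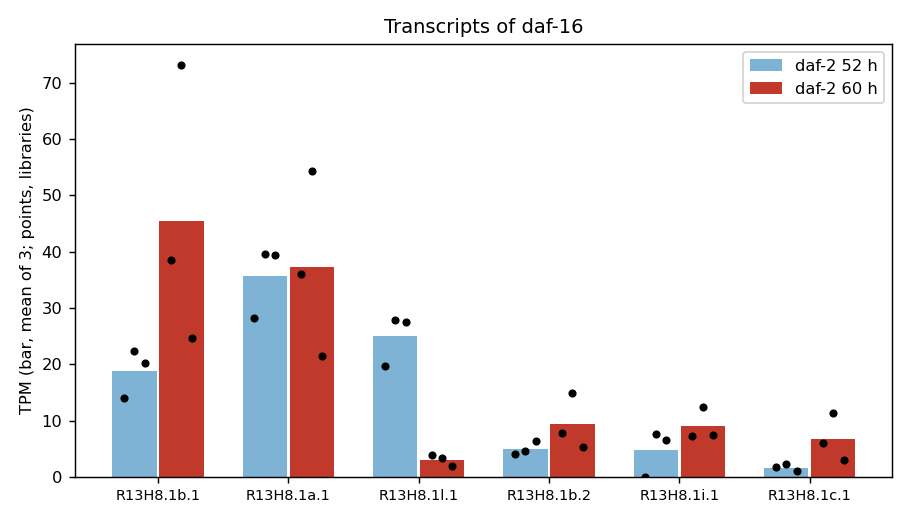
Level in TPM of the 6 most abundant daf-16 transcripts in daf-2 at 52 h (blue) and 60 h (red); bars are means of 3 libraries and points are libraries. Transcript R13H8.1l.1 lies between 19.7 and 27.8 TPM at 52 h and between 1.96 and 3.92 TPM at 60 h, while R13H8.1b.1 is higher in every 60 h library than in any 52 h library.

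In bli-4, for a proprotein convertase that trims collagens, transcript K04F10.4d.1 fell from 42.6, 55.5 and 58.3 TPM to 23.2, 26.8 and 14.7 TPM (log2 change -1.23, edgeR adjusted p 0.00353) and K04F10.4g.1 rose from 5.22, 6.5 and 7.35 TPM to 42, 91.5 and 46.2 TPM (log2 change 3.27, edgeR adjusted p 5.5e-05). The gene total was not called (63.3, 90.2 and 93.8 TPM, then 90.7, 177 and 81.3 TPM), and bli-4 overlaps mut-2. In dur-1, F25H8.5b.1 fell from 74.2, 71.4 and 72.7 TPM to 10.3, 13.2 and 5.39 TPM and F25H8.5h.1 rose from 3.11, 3.38 and 4.7 TPM to 73.5, 134 and 52.1 TPM (log2 change 4.55). F25H8.5c.1, the most abundant dur-1 transcript at 60 h, rose from 22.5, 40.6 and 43.1 TPM to 175, 310.1 and 117 TPM. In lev-11, for tropomyosin of muscle, transcript Y105E8B.1n.2 measured 54.5, 40.6 and 103.5 TPM at 52 h and had under 3 counts in every 60 h library, at least 483-fold lower with 3 counts taken as the floor per library (edgeR adjusted p 0.0337). In the double mutant at 52 h its levels were 0, 120.5 and 61 TPM, so the estimate was at 0 in 1 of those libraries too. The major lev-11 transcript Y105E8B.1a.1 was not called (1237, 1312 and 1184 TPM, then 1749, 2058 and 1120.4 TPM), and Y105E8B.1e.1 rose from 54.4, 59.6 and 54.7 TPM to 119.5, 182.8 and 176 TPM.

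The change in daf-2 was set against the change over the same 8 h in daf-2;daf-42. In the double mutant 6720 genes (41.0%) were called over time, 3672 higher (22.4%) and 3048 lower (18.6%). On the line from the 52 h to the 60 h mean of daf-2, the double mutant lay at -0.028 to 0.083 at 52 h and at 0.553, 0.623 and 0.585 at 60 h, so none of its 60 h libraries reached the daf-2 range of 0.851 to 0.952. The interaction, the difference between the 2 changes, was called for 1558 genes (9.52%). Leaving out the first 60 h replicate of the double mutant made this count 4670, leaving out the third 60 h replicate of daf-2 made it 4136, and leaving out any 1 of the other libraries gave 643 to 1054, so the number of interactions rests on which libraries are used. Genotype and the death of part of the 60 h double mutants cannot be told apart.

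The largest shortfalls of the double mutant were in genes that rose steeply in daf-2. T26C12.2 (chromosome IV, 3263766 to 3265757) went from 0.78, 1.59 and 2.22 TPM to 210.1, 264 and 147 TPM in daf-2 but from 1.16, 0.55 and 1.64 TPM to 0.972, 0.262 and 0.399 TPM in daf-2;daf-42 (interaction -7.79 on the log2 scale, SE 0.62, edgeR adjusted p 0.000112). In the double mutant scl-11 reached 16.4, 25.3 and 26.4 TPM (interaction -4.996), tyr-3 9.77, 7.51 and 10.6 TPM (interaction -4.58) and scl-12 118, 154 and 136 TPM (interaction -4.25). These 3 still rose over time in the double mutant, by 4.17, 4.65 and 3.59 on the log2 scale, and none of its libraries came near the daf-2 level at 60 h. Since the genes were picked for large interactions among daf-2 calls, the sizes are descriptions of the extremes.

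On the other side, cnc-4 fell in daf-2 from 93.7, 63 and 118 TPM to 27.2, 19.5 and 40.7 TPM and stood at 995, 2886 and 1530.3 TPM in the double mutant at 60 h (interaction 6.24, edgeR adjusted p 0.00059). The gene ora-1 went from 145, 180.1 and 183.3 TPM to 48.8, 45.5 and 52.9 TPM in daf-2 and from 192, 162 and 122 TPM to 586, 1281 and 914 TPM in the double mutant (interaction 4.75). C49G7.10 measured 32.4, 38.2 and 27.8 TPM and then 12.9, 7.93 and 8.54 TPM in daf-2. In the double mutant it measured 49.5, 105.5 and 103.6 TPM and then 210.4, 235.4 and 221 TPM (interaction 3.55). C49G7.10 thus stood higher in the double mutant already at 52 h, and its rise over time there was 1.93 on the log2 scale. For ttr-30 the daf-2 levels differed little (29.6, 20.7 and 22.6 TPM, then 45.4, 35.4 and 40.6 TPM) and the double mutant reached 543, 923 and 752 TPM (interaction 4.04). The daf-2 call of cnc-4 was lost in 10 of 21 alternatives, the replicate block among them, and that of ttr-30 in 14, among them the block, both other scalings and both other filters. For each gene 8 of these were fits with 1 library left out, replicates 1 of daf-2 at 60 h and 3 of daf-2 at 52 h among them, with edgeR adjusted p up to 0.129 and 0.158. All 8 interactions were called in each of 20 alternatives.

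**Figure D5:**
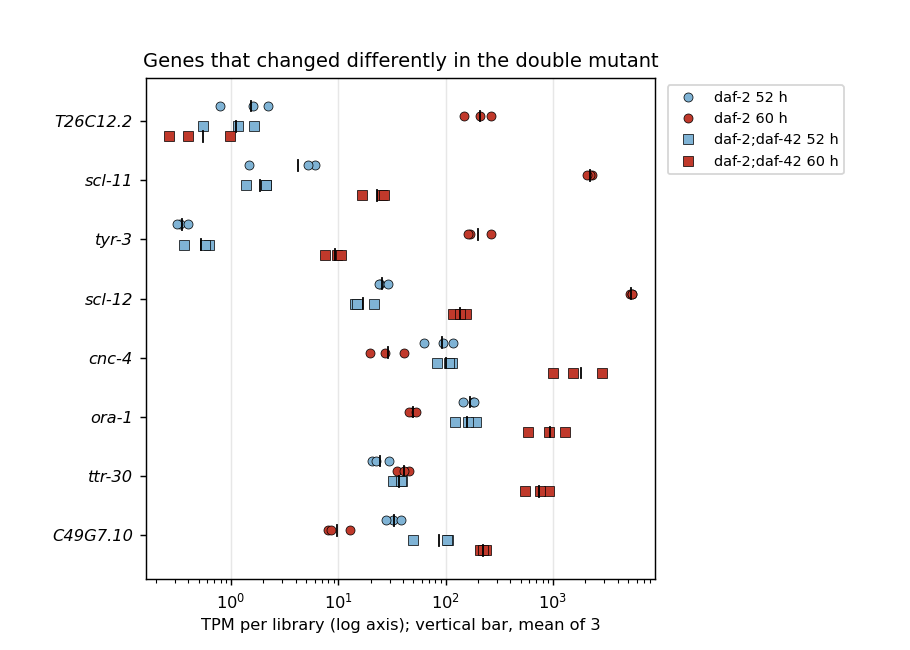
Level in TPM per library (log x axis) of the 8 genes with the largest interactions among those called over time in daf-2; circles are daf-2, squares daf-2;daf-42, blue 52 h, red 60 h, and the vertical bar is the mean of 3. In T26C12.2, scl-11, tyr-3 and scl-12 the daf-2 libraries at 60 h lie far to the right of the other groups, and in cnc-4, ora-1, ttr-30 and C49G7.10 the double mutant does.

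Of 41 lists with at least 13 tested genes, 24 had medians of the same sign in both genotypes, which share no library, and 17 of opposite sign. The furrow collagens had a median log2 change of -1.95 in the single mutant and -1.21 in the double mutant, and 0 of 6 had a called interaction. The dauer collagen gene col-2 rose by 1.72 in daf-2 and 1.88 in the double mutant, and col-37 by 2.14 and 2.29. The 9 dauer markers had medians of 1.55 and 1.66, and 0 of 9 had a called interaction. Of them, 6 were called higher in daf-2 and 5 in the double mutant, against 18.5% and 22.4% of all tested genes. For the fatty acid desaturases and elongases the medians were -1.42 and -0.51, with 2 of 15 interactions called, and for the proteasome -0.80 and -0.21, with 1 of 33. Other lists rose more in the double mutant. The flp medians were 0.70 and 1.29 (11 and 27 of 30 called higher, 0 interactions called). The nlp medians were 0.54 and 1.30 (22 and 59 of 67, 10 interactions). The transthyretin-related medians were 0.65 and 1.60 (20 and 40 of 48, 8 interactions). Of opposite sign were the insulin-like peptides, with medians of -0.33 and 0.61 and 1 of 27 interactions called, and the muscle sarcomere genes, with 0.51 and -0.85 and 3 of 25. The 10 caenacin genes had -0.38 and 2.96, with 4 interactions called. An interaction that misses the threshold does not show that the genotypes changed alike.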

How the data were processed

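Estimated counts and TPM per transcript, with transcript lengths, were deposited by the authors for each library; per the submitters' processing notes kallisto 0.46.1 and genome build WBcel235 were used. The transcriptome release and the strand setting are not given in the sources used here; the labels name a stranded kit. Of 36172 transcripts, 31502 were matched to a gene by exact name and 4581 by sequence name, and 89 were not matched. Estimated counts were summed to 22113 genes and rounded to whole numbers; 2684 genes held reads shared with another gene.

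Genes were tested with edgeR 4.0.16 (R 4.3.3, limma 3.58.1): quasi-likelihood F test, TMM scaling, filterByExpr, 1 mean per group of genotype and time over all 12 libraries, and Benjamini-Hochberg adjusted p under 0.05 over 16371 genes. DESeq2 1.42.0 was an alternative. On counts simulated for time in daf-2 over 16120 genes, edgeR called 89% of 4-fold and 29% of 2-fold changes, and 4.84% of its calls were unchanged genes. Over 24370 simulated transcripts it called 22% of changed ones. Each simulation changed only 200 genes or transcripts and held no library trend with transcript length. These rates may therefore not hold for the real libraries.

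The genes described at length were the 8 largest rises and falls whose mean log2 CPM reached 3, with no overlap and no shared reads, the 8 largest gains and losses of mean TPM, the 4 largest interactions each way, the 4 genes with the widest transcript split, and list members, the larger changes and the more abundant uncalled members first. Some list members were named for their role after their values were seen. The comparison and the lists were chosen with earlier results of these data known. Runs of neighbouring genes, place along the change and transcript length trends were described without a test. In daf-2;daf-42, deviations of same-numbered libraries at 52 h and 60 h correlated at 0.109, 0.408 and 0.136. All lay over the limit of 0.1, by which its numbers would count as pairs. The labels state no pairing, so the main fit has no replicate term. With the replicate number as a block 6168 genes were called there in place of 6720, and the interaction was called for 921 in place of 1558.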

Additional observations from a re-analysis of the deposited data

Results flagged for a closer look

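All 8 interactions named in the report were picked out because the change from 52 h to 60 h differed between daf-2 and daf-2;daf-42 in a test of the difference itself (edgeR, Benjamini-Hochberg adjusted over 16371 genes). The values, as the change in daf-2;daf-42 minus the change in daf-2 on the log2 scale, were -7.79 for T26C12.2, -4.996 for scl-11, -4.58 for tyr-3 and -4.25 for scl-12. They were 6.24 for cnc-4, 4.75 for ora-1, 4.04 for ttr-30 and 3.55 for C49G7.10. Over the 20 alternatives each kept its sign and its call. T26C12.2 ranged from -8.28 to -7.41, and C49G7.10 from 3.28 to 3.76. Leaving out each library in turn is among these alternatives; no outlier statistic was computed for groups of 3 libraries.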

How the results depend on the processing

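For time in daf-2, 5688 genes were called, 4429 to 6462 when single libraries were left out and 3131 against a minimum change of 1.5-fold. For time in daf-2;daf-42 these counts were 6720, 3624 to 8359 and 2643. The interaction, called for 1558 genes, was the least stable: 643 to 4670 with single libraries left out, 442 against the minimum change, 3412 by DESeq2 and 2508 with a transcript length offset. For transcripts the counts were 5198, 3513 to 4378 and 2851, and for list members 1028, 847 to 1127 and 642. RLE and upper-quartile scaling and both other filters left each of these counts, where run, within 1.5 times. For time in daf-2;daf-42 the share of calls that were higher was 54.6%, and 68.5% against the minimum change. The causes were not tested. Of 194 named genes called in daf-2, 161 kept their call under all 21 alternatives, 5 kept it wherever they were tested but had too few counts to be tested under at least 1 (D1086.6, D1086.11, D1086.20, K10H10.9 and hsd-1), and 28 lost it under at least 1; no value changed sign. Of 126 counts of list members in 1 direction, 47 moved by more than 1.5 times against the minimum change, 30 with the length offset and 6 to 27 with single libraries left out. Of the named genes not called, 8 were called with the length offset: daf-3, daf-12, daf-16, daf-42, ins-27, lev-11, mtl-2 and pdi-2. Transcript estimates and genes at a few counts are limited by depth and by shared reads.

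With the replicate number as a block, 5434 genes were called for time in daf-2, 6168 for daf-2;daf-42, 921 for the interaction, 4560 transcripts and 1004 list members. In daf-2 the numbers do not pair the samples by the limit of 0.1: deviations of same-numbered libraries from their group means correlated at 0.303, 0.263 and -0.0252 between the times, and replicate 3 at 52 h correlated best with replicate 2 at 60 h (0.214). For the interaction, which uses all 4 groups, they ranged from -0.627 (replicate 2 of the 60 h groups) to 0.408.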
